A study of Mus musculus with 22 samples.

Results

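Primary keratinocytes, the cells that build the epidermis, were grown from the tails of mice that carry a K5-VGLL3 transgene and from wild-type littermates, and their messenger RNA was sequenced. The comparison described is transgenic against wild-type keratinocytes over the autosomal genes of the keratinocyte count table, 14867 of its 21596 gene symbols, of which 12191 held enough counts to be tested. It used 6 of the 22 libraries of the study, which also covered nonlesional skin and whole blood of other mice of the same model. The 3 transgenic cultures were all from males by label, and of the 3 wild-type cultures 2 were from females and 1 was from a male. All 6 donors were 23 days old, no treatment was given, and the cells were expanded for 3 days before harvest. K5 stands for keratin 5, whose promoter is active in basal keratinocytes, so the transgene is driven in the cell type that was cultured. Each culture had an animal tag of its own, and the labels do not tie a transgenic culture to a wild-type one of the same litter. With transgenic animals of 1 sex only, genotype and sex are partly confounded, and the counts of calls with sex as a covariate and from the male cultures alone are given for the gene lists that hold most of the calls.

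VGLL3 is a transcriptional cofactor without a DNA-binding domain of its own. It acts by binding the TEAD transcription factors, the same partners that are bound by YAP and TAZ, the effectors of the Hippo pathway, which couples cell density and tension to growth. Keratinocytes in culture divide as basal cells and can differentiate into the barrier layers. They also make chemokines and colony-stimulating factors that call and feed immune cells in the skin.

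The promoters shown first belong to genes described further on. The chemokine genes Cxcl1, Cxcl2, Cxcl3 and Ccl20 were among the 10 members of the cytokine list that fell in transgenic cells, and they were chosen for display after their values were seen. Of those 10 genes 6 had an entry in the promoter table of RefSeq (build GRCm38.p6), and 4 of the 6 held the letters GGNNTTTCC, a form of the site bound by NF-kB, on either strand within the 250 bases before the transcription start given there. These letters were held by 4.93% of all 32851 promoters there. Csf2 and Lif had an entry without the letters, and Cxcl5, Cxcl16, Csf3 and Il34 had no entry. Cxcl1, Cxcl2 and Cxcl3 lie close together on chromosome 5 and share the stretch GGAATTTCC, so their matches may not be separate. The capitals mark the matches in the stretch that ends 1 base before that start, on the plus strand.
Cxcl1, chr5:90891125-90891244: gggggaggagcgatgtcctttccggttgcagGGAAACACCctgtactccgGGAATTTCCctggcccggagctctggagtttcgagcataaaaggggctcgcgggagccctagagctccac
Cxcl2, chr5:90903779-90903898: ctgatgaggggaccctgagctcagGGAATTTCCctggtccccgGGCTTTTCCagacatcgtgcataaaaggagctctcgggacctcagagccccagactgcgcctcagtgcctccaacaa
Cxcl3, chr5:90785981-90786100: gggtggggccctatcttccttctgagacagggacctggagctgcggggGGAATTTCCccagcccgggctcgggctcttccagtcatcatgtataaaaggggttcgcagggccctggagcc
Ccl20, chr1:83116646-83116765: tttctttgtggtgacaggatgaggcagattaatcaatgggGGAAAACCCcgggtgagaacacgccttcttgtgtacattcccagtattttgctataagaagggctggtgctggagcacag

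Of the 7 called Hippo target genes with the smallest p, taken in that order until the promoters of 4 were at hand, 4 had an entry, and 2 of these held GGAATG, the letters of the TEAD site, within the same window, against 12.6% of all promoters. They are shown because one of them fell and the other rose in transgenic cells. Gadd45b and Tgfb2 had an entry without the letters, and Arhgef17, Asap1 and Nuak2 had no entry. Neither motif's letters contain the other's, and a match is a description of the sequence only. The capitals mark the matches, again on the plus strand. For Amotl2 the start in the RefSeq table lies inside the annotated span of the gene (chromosome 9, 102716672 to 102733418), so its stretch is not upstream of the whole gene.
Ptpn14, chr1:189728118-189728267: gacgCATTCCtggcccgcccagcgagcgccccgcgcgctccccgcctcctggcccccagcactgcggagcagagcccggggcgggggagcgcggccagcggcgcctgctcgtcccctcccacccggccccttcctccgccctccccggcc
Amotl2, chr9:102717654-102717803: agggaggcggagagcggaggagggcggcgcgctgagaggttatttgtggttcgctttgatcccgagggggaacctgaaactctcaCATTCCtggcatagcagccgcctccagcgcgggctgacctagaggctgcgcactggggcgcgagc

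The 6 libraries held 33412093 to 51877437 counts, with 19896 to 20883 symbols detected in each. The sex of every culture, read from Xist and 4 Y-linked genes, matched its label: Xist had 13082 and 20881 counts in the female cultures and 7 to 31 in the male ones. The first principal component of the autosomal genes took 58.6% of the variance and separated the genotypes. The second took 18.5% and set transgenic culture 3 apart, at -27.54 against -10.35 to 15.26 for the other 5. Correlations of log2 levels with that culture were 0.9887 and 0.9893 for the other transgenic cultures, which correlated at 0.9949 with each other. Some of the results that rest on this culture are given with and without it.

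The keratinocyte identity of all cultures was checked on 5 markers. Krt5 and Krt14, the keratin pair of basal keratinocytes, stood at 15026 to 20911 CPM and 15652 to 18986 CPM (read counts scaled to a fixed library size), and neither passed the main test between genotypes. The groups overlapped in neither gene, and the directions were opposite. Krt14 was higher in transgenic cultures (log2 fold change 0.10, edgeR adjusted p = 0.554). Krt5 was lower in them (log2 fold change -0.32, edgeR adjusted p = 0.089) and passed in 4 of 14 alternative fits. These were DESeq2 (adjusted p = 0.000406), limma-voom (0.0257), edgeR with no filter (0.0202) and edgeR without transgenic culture 3 (0.0188). Trp63, Itga6 and Col17a1, a basal transcription factor and 2 proteins that anchor the cell to its basement membrane, stood at 432 CPM or higher in every culture. Vgll3 itself (chromosome 16, 65815257 to 65866368, GRCm38) was at 499, 478 and 406 CPM in the transgenic cultures and at 225, 191 and 192 CPM in the wild-type ones. The groups did not overlap (log2 fold change 1.19, SE 0.098, edgeR adjusted p = 0.000716), and the count table does not separate transgene reads from those of the endogenous gene.

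Across the autosomal genes the transgene went with many changes, most of them small. The edgeR quasi-likelihood test with Benjamini-Hochberg adjustment called 960 genes higher (7.87% of the 12191 tested) and 1066 lower (8.74%) in transgenic cells, at an adjusted p under 0.05. Among the genes called higher the median log2 fold change was 0.56, and among those called lower it was -0.47. At least 2-fold differences were reached by 265 of the genes called higher and 185 of those called lower, and at least 4-fold ones by 62 and 41. In 2025 of the 2026 called genes the groups did not overlap in CPM, which was so for 38.4% of all genes tested. On each of the 19 autosomes 14.6% to 18.8% of the tested genes were called.

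The counts depended on sex as a term in the model and on single cultures. With sex as a covariate 243 genes were called higher and 279 lower, and with the 4 male cultures alone, 3 transgenic against 1 wild type, 79 and 95. Of the 2026 called genes 501 kept their call with the sex term and 172 in the male cultures alone. Without transgenic culture 3 the counts were 1553 and 1819.

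**Figure D1:**
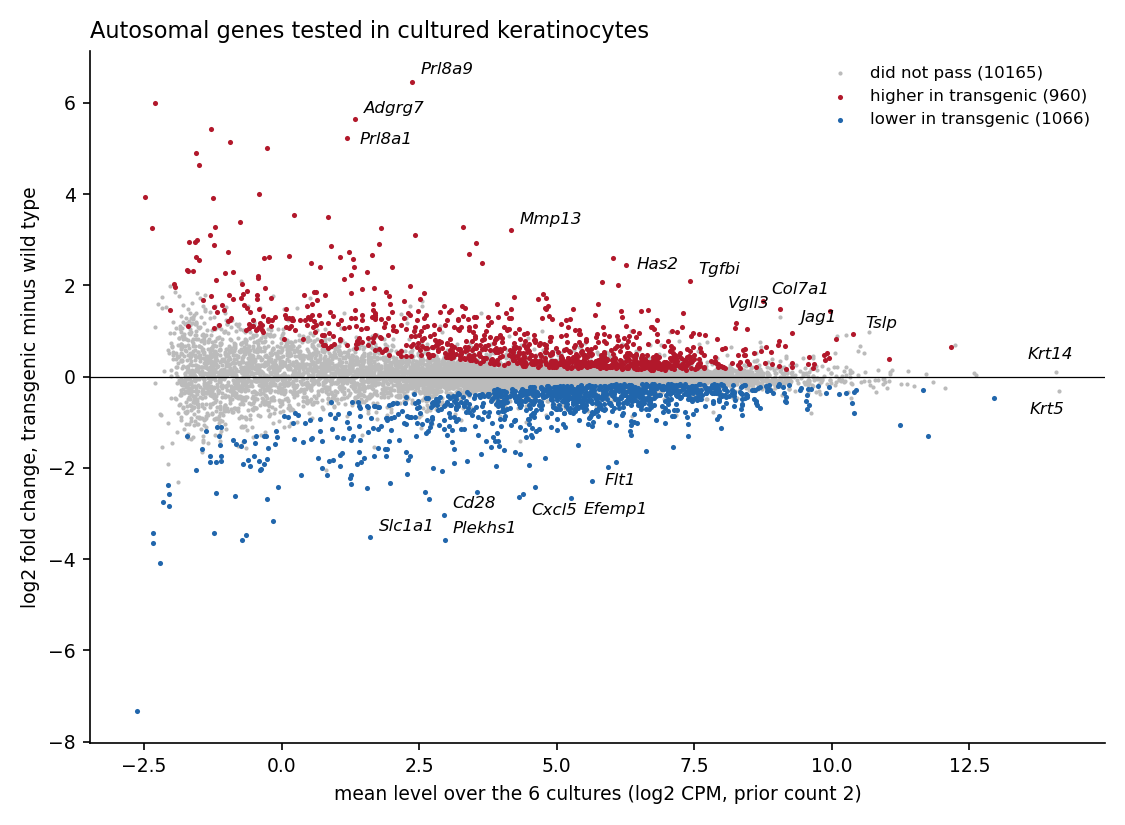
Log2 fold change of each autosomal gene tested (transgenic minus wild type, edgeR) against its mean level over the 6 cultures in log2 CPM; each point is a gene, red for the 960 called higher, blue for the 1066 called lower and grey for the rest. Krt5 and Krt14, at the right, lie near 0 among the grey points, and the largest fold changes belong to genes of low or middling level.

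Among the genes with the highest fold changes were 2 neighbouring members of the prolactin family. Prl8a9 (chromosome 13, 27557995 to 27564606), a prolactin-like hormone gene known from the placenta, was at 62.9, 60.3 and 29.7 CPM in transgenic cultures and at 0.797, 0.71 and 0.221 CPM in wild-type ones. The log2 fold change was 6.45 (SE 0.451, edgeR adjusted p = 0.000485). Genes were named by fold change only where the groups did not overlap, so their separation follows from that rule. Prl8a1 (27573922 to 27582171) stood at 15.7, 17.3 and 7.87 CPM against 0.431, 0.312 and 0.319 CPM, or 5.23 on the log2 scale (SE 0.385, edgeR adjusted p = 0.000501). In both genes transgenic culture 3 had the lowest level of its group.

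Between them in size was Adgrg7, an adhesion G protein-coupled receptor gene, at 16.4, 14.2 and 20.2 CPM against 0.258, 0.341 and 0.418 CPM (log2 fold change 5.65, SE 0.22, edgeR adjusted p = 6.733e-05). Here culture 3 was the highest, and the call held in all 14 alternative fits. Rgs5 and Rgs4, neighbouring genes on chromosome 1 for proteins that shorten G protein signalling, rose by 3.49 and 2.92 on the log2 scale. Rgs4 was at 34.3, 29.4 and 33.9 CPM against 3.7, 6.3 and 3 CPM. Rgs16, of the same gene family, moved the other way, from 37.4, 28.6 and 21.7 CPM in wild-type cultures to 6.12, 6.39 and 2.85 CPM in transgenic ones (log2 fold change -2.54).

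Other genes with high fold changes act at the cell surface or outside the cell. S1pr3, a receptor for sphingosine 1-phosphate, rose by 2.73 on the log2 scale, and Ackr3, an atypical chemokine receptor, by 2.69. Ackr3 was at 39.1, 29.7 and 14.7 CPM against 4.24, 3.83 and 4.77 CPM, and its call was lost with the sex term and in the male cultures alone (highest edgeR adjusted p = 0.144). Clec2g, a C-type lectin gene, was at 8.99, 9.17 and 9.64 CPM against 1.42, 1.22 and 1.03 CPM, the tightest pair of groups among the 15 highest genes (log2 fold change 2.91, SE 0.142). Fcgbp, which encodes a mucin-like binding protein, Chst2, a sulfotransferase gene, and Add2, the gene for beta-adducin of the membrane skeleton, rose by 3.11, 2.67 and 3.26. Nlrc5, the transactivator of MHC class I genes, was at 4.68, 4.14 and 6.28 CPM against 0.947, 0.852 and 0.663 CPM (log2 fold change 2.62, SE 0.227, edgeR adjusted p = 0.000798).

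The genes with the lowest fold changes were led by Plekhs1, a pleckstrin-domain gene, at 2.29, 2.02 and 2.41 CPM in transgenic cultures against 26.4, 31.7 and 22.3 CPM (log2 fold change -3.57, SE 0.157, edgeR adjusted p = 9.121e-05). Slc1a1, a glutamate transporter gene, was at 1.24, 0.795 and 0.679 CPM against 8.78, 10.7 and 10.9 CPM (log2 fold change -3.52). Cd28, best known as the costimulatory receptor of T cells, was at 3.2, 2.72 and 2.3 CPM against 26.7, 20.2 and 19.2 CPM (log2 fold change -3.02, SE 0.176). Flt1, a receptor for VEGF, fell from 122, 120 and 94 CPM to 29.7, 23.6 and 15.6 CPM (log2 fold change -2.29). These 4 genes were named by a rule that asks for groups without overlap. Among them the call of Flt1 alone was lost in an alternative fit, on the 4 male cultures.

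Efemp1, a gene for a matrix protein of the fibulin family, had the smallest adjusted p of the 30 genes named by fold change. It was at 15.1, 14.2 and 16.6 CPM against 100.3, 104 and 85.1 CPM (log2 fold change -2.66, SE 0.0982, edgeR adjusted p = 6.213e-05). Its adjusted p was at most 0.00649 in the 14 alternative fits. Flnc, the gene of the actin crosslinker filamin C, fell by 2.65 on the log2 scale. Cldn3, a gene for a claudin of tight junctions, was at 9.68, 9.25 and 12.6 CPM against 49.4, 66.3 and 54.7 CPM (log2 fold change -2.43). Tnfsf18, the ligand of GITR on T cells, fell by 2.36, Chn2, a gene for a Rac-regulating chimaerin, by 2.32, and Rec114, a gene of meiotic recombination, by 2.44. The call of Tnfsf18 was lost with the sex term and in the male cultures alone (highest edgeR adjusted p = 0.205). Of the 30 genes named by fold change 25 kept their call with the sex term and 19 in the male cultures alone.

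**Figure D2:**
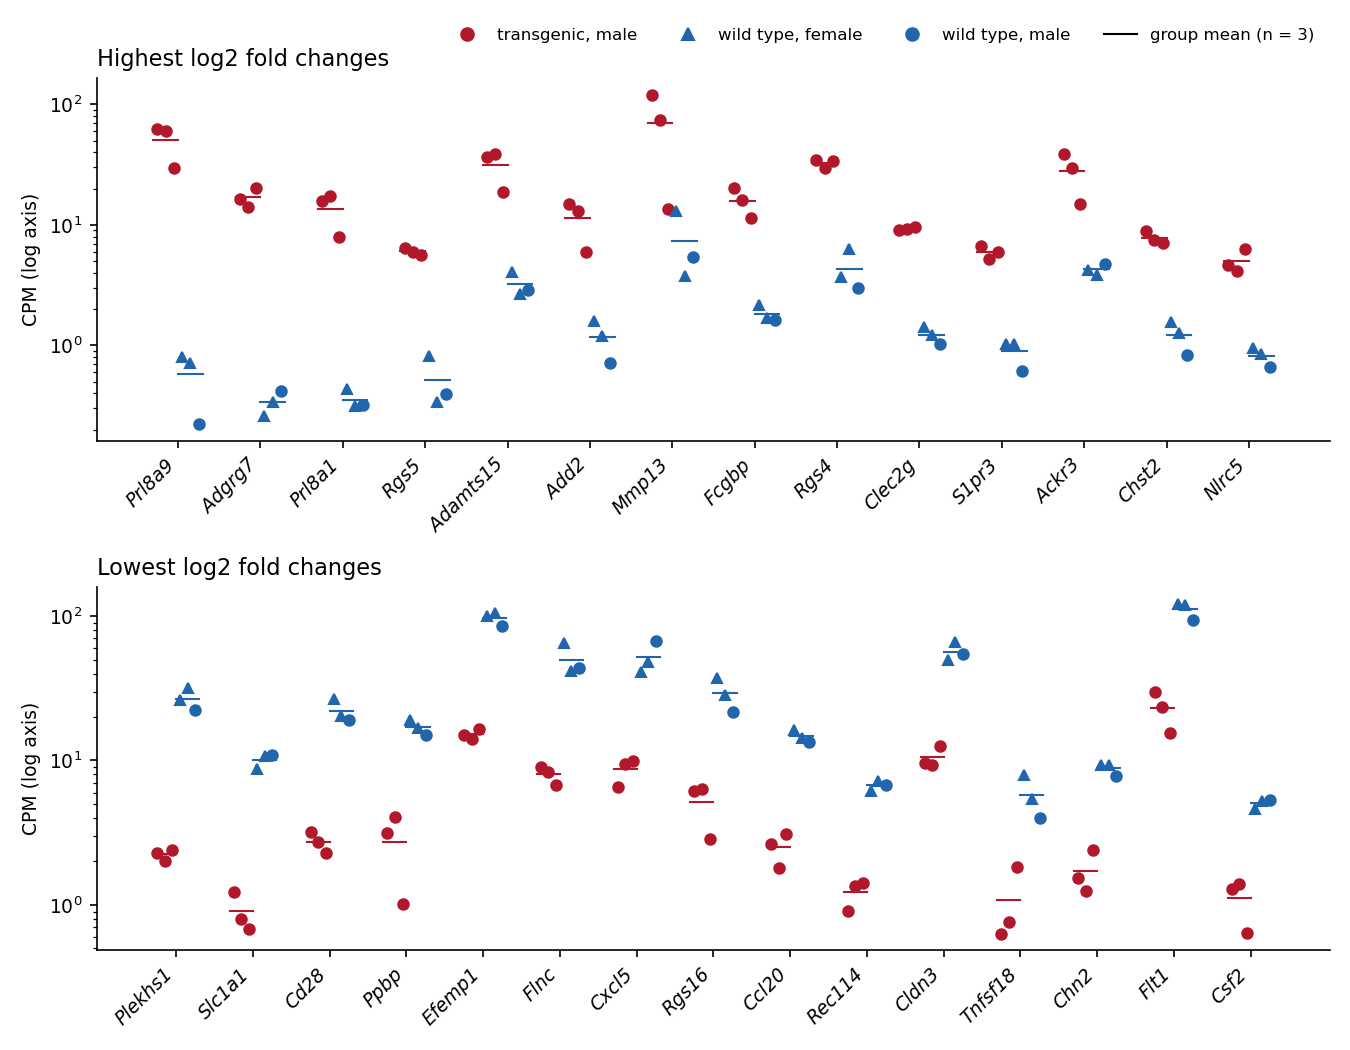
Level in each culture of 14 of the genes with the highest (top) and of the 15 with the lowest (bottom) log2 fold change, in CPM on a log axis; circles are males, triangles females, red transgenic and blue wild type, and lines are group means of 3 cultures. Genes were plotted only where the 2 groups do not overlap, so their separation follows from that choice.

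Genes of the cell cycle fell. All 30 of that list were tested and had negative log2 fold changes, and 24 of them fell. The median was -0.53, against 0.0089 over all genes tested. Birc5, a survivin gene needed for chromosome segregation, was at 32, 32.2 and 46.9 CPM in transgenic cultures against 68.5, 64 and 67.7 CPM (log2 fold change -0.85, SE 0.145, edgeR adjusted p = 0.00996). Cdk1, the mitotic kinase, was at 91.7, 92.7 and 118 CPM against 175, 168 and 169 CPM (log2 fold change -0.76, SE 0.0975). Mcm6, a subunit of the replicative helicase, was at 149, 150 and 165 CPM against 220, 212 and 210 CPM (-0.47), and Rrm2, of the enzyme that makes deoxynucleotides, at 305, 280 and 294 CPM against 413, 401 and 397 CPM (-0.46). The wild-type cultures lay close together in these genes whatever their sex, and in Birc5, Cdk1 and Mcm6 transgenic culture 3 was nearest to them. With the sex term 3 members passed as lower and in the male cultures alone 0, with medians of -0.54 in both fits.

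Genes of cholesterol synthesis also fell, 8 of 22 tested, with a median of -0.48. Insig1, a brake on the sterol sensor, was at 17.6, 16.8 and 28.7 CPM against 35.1, 40.1 and 42.5 CPM (log2 fold change -0.89, SE 0.203, edgeR adjusted p = 0.0272). The groups did not overlap, and transgenic culture 3 lay nearest to the wild-type cultures. Without that culture 19 members passed as lower, and with the sex term or in males alone 0 did. Of 20 genes of the unfolded protein and integrated stress responses 7 fell and 1 rose. Cth and Psat1, enzymes of cysteine and serine synthesis, fell by 0.80 and 0.64 on the log2 scale, the transcription factor Atf3 by 1.07 and the chaperone Hsp90b1 by 0.45. Trib3, a pseudokinase, rose by 0.54.

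**Figure D3:**
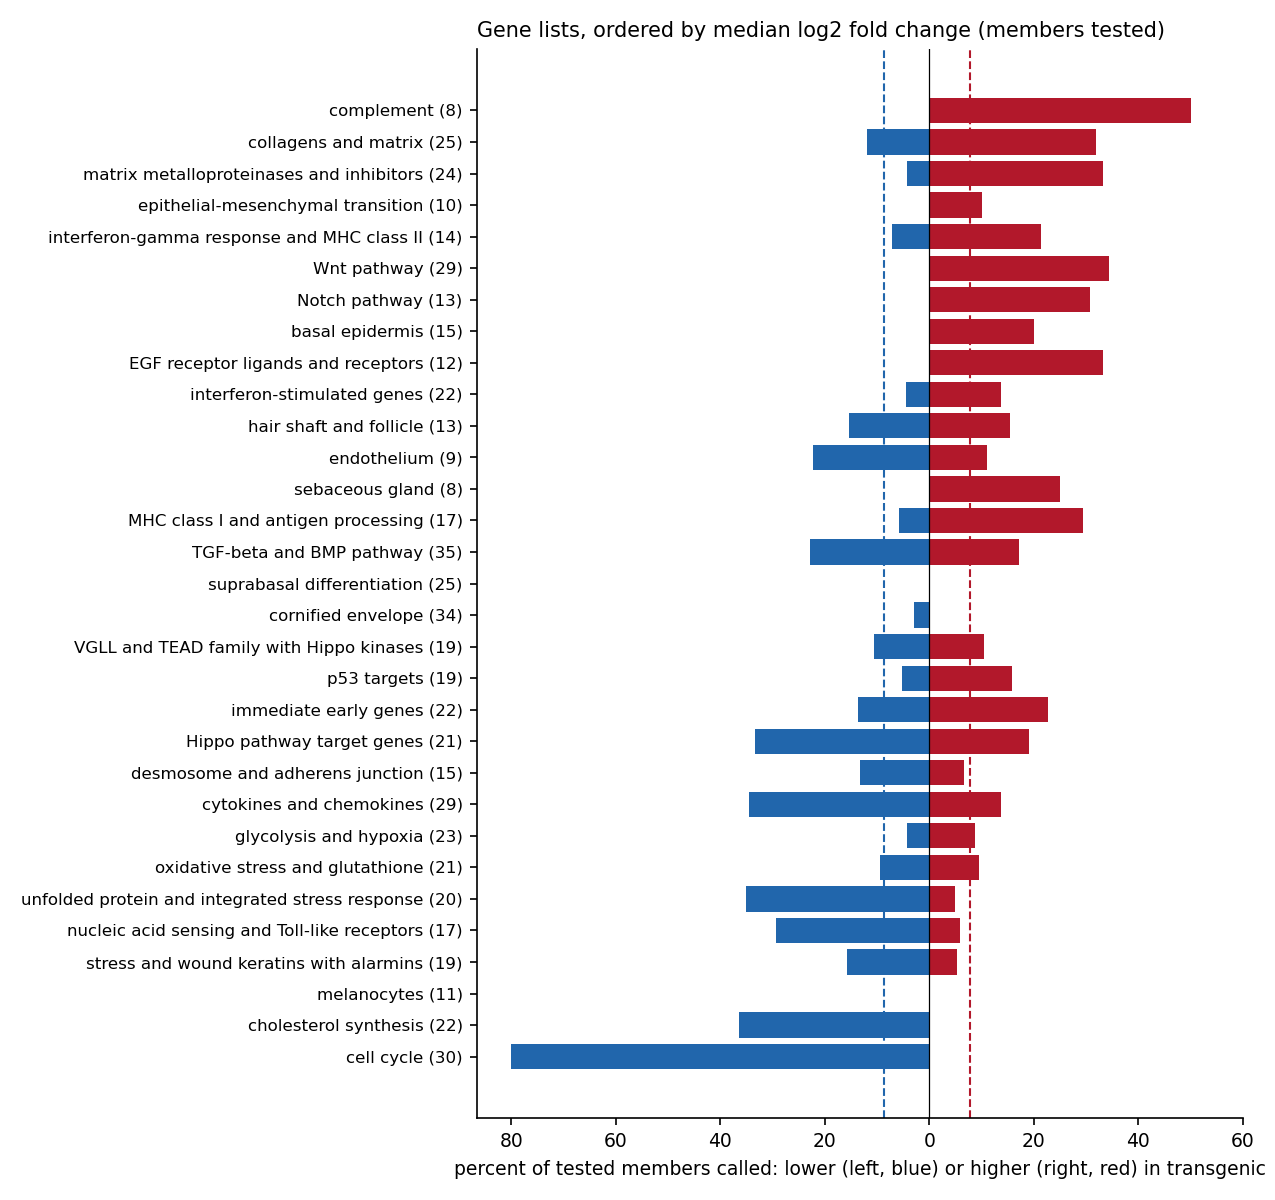
Share of the tested members of each gene list that was called higher (red, right) or lower (blue, left) in transgenic cultures, in percent, for 31 lists with at least 8 tested members, ordered by median log2 fold change; the number tested is in brackets and dashed lines mark the shares over all genes, 7.87% higher and 8.74% lower. The cell cycle list, at the bottom, had 24 of 30 members lower, and the complement list, at the top, 4 of 8 higher.

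Cytokines and chemokines moved in both directions, 4 of 29 tested higher and 10 lower. Those that fell were chiefly neutrophil-attracting chemokines and colony-stimulating factors. Cxcl5, Ppbp, Cxcl3, Cxcl1 and Cxcl2 lie beside each other on chromosome 5 between positions 90759360 and 90905938, and their proteins bind the receptor CXCR2. Each was lower in every transgenic culture than in any wild-type one, which the naming rule required of Cxcl5 and Ppbp. Cxcl5 was at 6.61, 9.45 and 9.96 CPM against 40.7, 48 and 67.6 CPM (log2 fold change -2.58, SE 0.226, edgeR adjusted p = 0.000818). Cxcl1, the most abundant of them, was at 60.8, 58.8 and 41.9 CPM against 116, 122 and 132 CPM (-1.20, SE 0.137), and Cxcl3 at 3.56, 4.26 and 3.23 CPM against 14.9, 13.3 and 18 CPM (-2.07). Ppbp, which stands outside the list, fell by 2.67. The promoters of Cxcl1, Cxcl2 and Cxcl3 are among those printed above.

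Ccl20, the ligand of CCR6 on Th17 cells and dendritic cells, was at 2.62, 1.79 and 3.11 CPM against 16.4, 14.2 and 13.5 CPM (log2 fold change -2.53, SE 0.193, edgeR adjusted p = 0.000512). The colony-stimulating factors Csf2 and Csf3, which feed myeloid cells, fell by 2.22 and 2.68 on the log2 scale from 4.59 to 5.33 and 1.7 to 2.45 CPM, and Lif, Il34 and Cxcl16 by 0.63, 0.97 and 0.57. Those that rose were Il11 (log2 fold change 2.48), a cytokine of the interleukin 6 family, the skin chemokine Ccl27a (1.07), Cx3cl1 (0.85) and Cxcl14 (0.59). Outside the list of cytokines, Tslp, an alarmin of the epidermis, was at 2223, 1878 and 1492 CPM against 1128, 986 and 809 CPM (0.94, SE 0.169), and Il1f6, which encodes interleukin 36 alpha, fell by 1.89. With the sex term 8 members of the list passed as lower and 0 as higher, and in the male cultures alone 5 and 0.

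The Toll-like receptor genes Tlr2, Tlr3 and Tlr4 fell. Tlr2, which senses bacterial lipopeptides, was at 14, 12.7 and 14.1 CPM against 23.4, 26.8 and 27.9 CPM (log2 fold change -0.94, SE 0.0882, edgeR adjusted p = 0.00101), and Tlr3 and Tlr4 each had a log2 fold change of -0.65. Over the list of nucleic acid sensors and Toll-like receptors 5 of 17 genes fell, and Adar, an RNA-editing enzyme, rose by 0.26. Of 22 interferon-stimulated genes 3 rose and 1 fell: Oasl2, Oas1a and Irf7 rose by 2.39, 1.49 and 1.23 from levels of at most 1.57 CPM, and Ifit2 went from 12.3, 10.7 and 7.72 CPM to 2.29, 1.93 and 2.73 CPM (-2.13). Isg15 and Ifih1 did not pass, with log2 fold changes of 0.94 and 0.51. The shares called over all genes tested were 7.87% higher and 8.74% lower, so the interferon count says little about that list as a whole.

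Antigen presentation and complement held more members that rose. Of 17 MHC class I genes 5 rose, among them Nlrc5, the transporter Tap2 (0.61), the immunoproteasome subunit Psmb8 (1.44; 11.2, 8.77 and 7.83 CPM against 4.18, 3.58 and 2.41 CPM) and H2-T23 (0.47), whose reads may be shared with near copies in the H2 cluster; Canx fell by 0.18. Of 14 MHC class II and interferon-gamma response genes 3 rose, Cd74, H2-Aa and H2-Ab1, from below 0.5 CPM to at most 2.6 CPM, and Cxcl10 fell by 1.43. Of 8 complement genes tested 4 passed, all as higher. C1s1, a protease of the classical pathway, was at 148, 131 and 76.7 CPM against 30, 28.9 and 25.7 CPM (log2 fold change 2.07, SE 0.228), and C3, the hub of all pathways, at 80.7, 66.2 and 38.6 CPM against 28.3, 32.4 and 30.9 CPM (1.01; the call was lost in 8 of 14 alternative fits, highest edgeR adjusted p = 0.315). C1ra rose by 0.79, and C3ar1, the receptor of a C3 fragment, had 83 counts over the transgenic cultures and 1 over the wild-type ones.

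Of 19 genes of the VGLL and TEAD family and the Hippo kinases, Amotl2 was the only one besides Vgll3 to rise, and Wwtr1 and Wwc1 fell. Amotl2, an angiomotin that holds YAP in the cytoplasm and is itself induced by YAP, was at 733, 728 and 617 CPM against 450, 384 and 380 CPM (log2 fold change 0.77, SE 0.0949, edgeR adjusted p = 0.00277). Wwtr1, which encodes TAZ, was at 89.7, 83.9 and 72.8 CPM against 105, 103 and 105 CPM (-0.35, SE 0.0755), and Wwc1, the gene of the upstream regulator KIBRA, fell by 0.38. The call of Wwtr1 was lost in 6 of 14 alternative fits (highest edgeR adjusted p = 0.270). Tead1 to Tead4 and Yap1 did not pass, with log2 fold changes between -0.27 and 0.18. Calls in this list stand beside shares of 7.87% higher and 8.74% lower over all genes tested.

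Hippo target genes went both ways, 4 of 21 higher and 7 lower, with a median of 0.01. Ptpn14, a phosphatase that restrains YAP, was at 99.1, 102 and 94.2 CPM against 165, 156 and 155 CPM (log2 fold change -0.69, SE 0.0491, edgeR adjusted p = 0.000485). Gadd45b, a stress gene, fell by 0.95, the signalling genes Arhgef17 and Asap1 by 0.68 and 0.74, and Tgfb2 by 1.15. Cyr61, a matricellular protein gene widely used as a readout of YAP, was at 153, 121 and 83.6 CPM against 314, 228 and 192 CPM (-1.04, SE 0.246), while Ctgf, used in the same way, did not pass (-0.07, edgeR adjusted p = 0.902). Nuak2, a kinase gene, was at 126, 124 and 89.3 CPM against 58.5, 46.9 and 51 CPM (1.11, SE 0.143), and Nt5e and Rbms3 rose by 0.64 and 0.69. The promoters of Ptpn14 and Amotl2, both with the TEAD letters, thus belong to a gene that fell and to a gene that rose. With the sex term 1 member passed as higher and 4 as lower, and in the male cultures alone 0 and 2.

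Ligands and receptors of growth and patterning pathways rose in part. In the Wnt list 10 of 29 genes passed, all as higher, with a median of 0.30. Wnt3a was at 7.69, 5.85 and 3.79 CPM against 1.33, 0.937 and 0.934 CPM (log2 fold change 2.41, SE 0.3, edgeR adjusted p = 0.00295), Wnt5a, a non-canonical ligand, rose by 1.42, and Wnt3 by 1.02. Axin2, a feedback inhibitor that is itself a Wnt target, was at 13.5, 12.2 and 13.9 CPM against 8.2, 7.21 and 7.79 CPM (0.77, SE 0.0923). The receptor genes Fzd2, Fzd6 and Fzd10 rose by 0.55, 0.29 and 0.68. With the sex term 2 members of the list passed and in the male cultures alone 0.

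In the Notch list 4 of 13 genes passed, all as higher. They were the receptor Notch1, at 488, 486 and 555 CPM against 333, 339 and 357 CPM (log2 fold change 0.57, SE 0.067), and the ligands Jag1 (0.96), Jag2 (0.42) and Dll1 (0.53). Among ligands of the EGF receptor family Nrg1, Epgn, Areg and Tgfa rose by 1.01, 0.94, 0.74 and 0.48, and Btc, Ereg, Hbegf and the receptors Egfr, Erbb2 and Erbb3 did not pass. None of the 4 that rose kept its call with the sex term or in the male cultures alone. Epgn, the gene of epigen, was at 254, 260 and 287 CPM against 144, 113 and 161 CPM. In the TGF-beta and BMP list 6 of 35 rose and 8 fell. The ligand Tgfb1 rose by 0.50 and Bmp7 by 0.88, while Bmp2, Bmp4 and Tgfb2 fell by 1.39, 1.85 and 1.15 from at most 4.49 CPM, the receptor Tgfbr2 fell by 0.49 and the BMP targets Id1, Id2 and Id3 by 0.54, 0.36 and 0.23.

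Matrix and protease genes contained some of the larger changes at high expression. Col7a1, the collagen of the anchoring fibrils below the epidermis, was at 919, 839 and 590 CPM against 306, 238 and 196 CPM (log2 fold change 1.67, SE 0.207, edgeR adjusted p = 0.00292). Tnc, the gene of tenascin C, was at 1155, 1084 and 548 CPM against 436, 330 and 232 CPM (1.48), Col12a1 at 235, 217 and 229 CPM against 120, 96.7 and 103 CPM (1.10, SE 0.0823), and the basement membrane chains Col4a1 and Col4a2 rose by 1.24 and 1.15. Col8a1 fell by 1.99, from 103, 134 and 129 CPM to 31.7, 27.8 and 32.4 CPM. Over the list 8 of 25 genes rose and 3 fell. Its median, 0.42, was -0.47 without transgenic culture 3, so the list's median took its sign from that culture.

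Of 24 metalloproteinases and inhibitors 8 rose and 1 fell. Mmp13, a collagenase, was at 120, 74.6 and 13.6 CPM against 13, 3.78 and 5.43 CPM (log2 fold change 3.21, SE 0.797, edgeR adjusted p = 0.0368). The groups nearly touched, between transgenic culture 3 and the highest wild-type culture, and the call was lost in 8 of 14 alternative fits (highest edgeR adjusted p = 0.274). Adamts1, a versican-cleaving protease gene, was tight, at 447, 428 and 433 CPM against 204, 193 and 225 CPM (1.07, SE 0.0645). Mmp12, Mmp15, Adamts5 and Adam12 rose by 2.60, 1.09, 1.28 and 1.74, and Adam8 fell by 0.57. Tgfbi, a matrix protein gene induced by TGF-beta, was at 415, 372 and 281 CPM against 80.1, 87.6 and 81.2 CPM (2.10, SE 0.137, edgeR adjusted p = 0.000392).

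**Figure D4:**
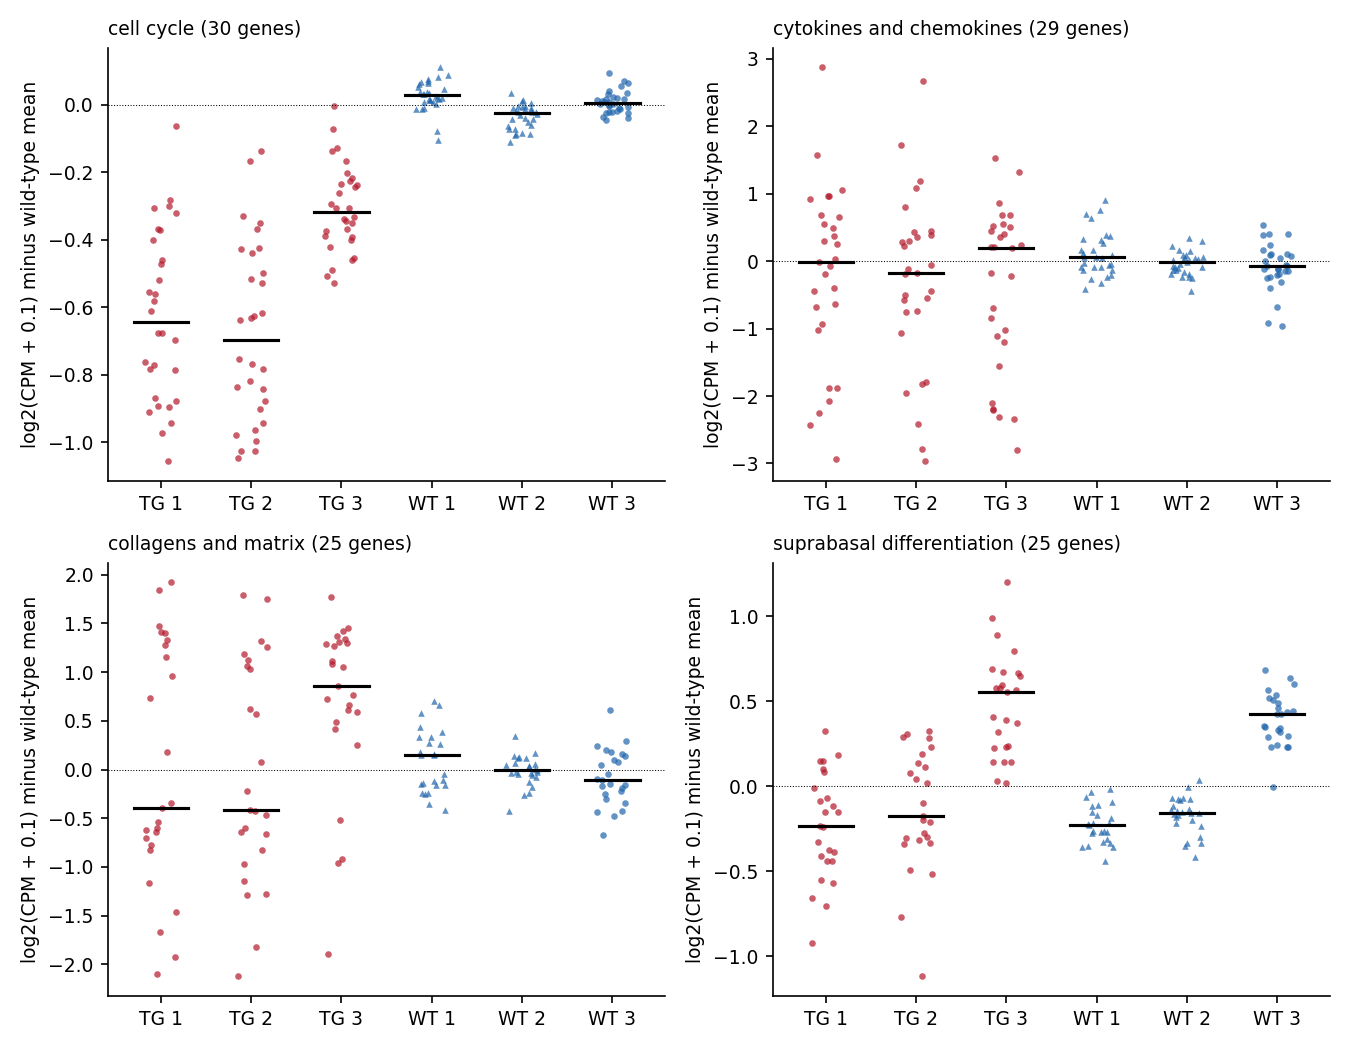
Genes of 4 lists in each culture, as log2(CPM + 0.1) minus the mean of the wild-type cultures; each point is a gene, red is transgenic and blue wild type, circles are males, triangles females, and black lines are medians over the genes. The cell cycle medians lie at -0.64, -0.70 and -0.32 in transgenic cultures, while in the suprabasal list transgenic culture 3 and the male wild-type culture (0.55 and 0.42) lie above the other 4.

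Differentiation markers gave few calls between the genotypes. Of 25 suprabasal genes, such as the keratins Krt1 and Krt10, 0 passed in edgeR, limma-voom or DESeq2, and 1 had an unadjusted edgeR p under 0.05. Ivl, the gene of the envelope protein involucrin, was at 344, 417 and 298 CPM against 324, 313 and 358 CPM, and the groups overlapped. Of 34 genes of the cornified envelope 1 passed, Lce1h, which fell by 0.94. The medians of the 2 lists, 0.11 and 0.08, were -0.32 and -0.35 in the male cultures alone. Without transgenic culture 3 they were -0.21 and -0.24. Of 15 basal genes Itga6, Col17a1 and Trp63 rose by 0.82, 0.65 and 0.28, and none of the 3 kept its call with the sex term.

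Junction and stress genes gave single changes. Dsc3, a desmosomal cadherin gene, rose by 0.38, while Pkp2, which encodes plakophilin 2, fell by 1.31 from 28, 22.2 and 17.6 CPM to 9.89, 9.17 and 8.32 CPM, and Ctnnd1, the gene of p120 catenin, fell by 0.32. The wound keratin Krt17 fell by 0.47. Of 21 genes of oxidative defence Nqo1 and Gclc rose by 0.93 and 0.57, and Gsta4 and Gclm fell by 0.58 and 0.39. Vegfa, the ligand of Flt1, was at 108, 109 and 106 CPM against 59.1, 66.2 and 71.1 CPM (log2 fold change 0.72, SE 0.0692, edgeR adjusted p = 0.00111), so the ligand rose where its receptor fell. Of 22 immediate early genes 5 rose and 3 fell. Egr2 and Fosl1, both transcription factors, rose by 1.08 and 1.03, and Ier3, a survival gene, fell by 0.53. Of 19 targets of p53 3 rose and 1 fell, with the cell cycle inhibitor Cdkn1a at 692, 678 and 635 CPM against 575, 569 and 586 CPM (log2 fold change 0.21). Beside 7.87% higher and 8.74% lower over all genes tested, the oxidative and p53 counts say little about those lists.

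Of 10 genes of the epithelial-mesenchymal transition Tgfbi alone passed. Of 23 genes of glycolysis and hypoxia Vegfa and P4ha1 rose and Eno1 fell, the last by 0.25. Of 13 hair genes Padi3 and Msx2 rose by 1.23 and 0.88, and the hair keratin Krt84 and S100a3 fell by 1.39 and 0.65. Of 8 sebaceous genes Soat1 and Plin2, which store cholesterol esters and lipid droplets, rose by 0.81 and 0.66. Of 6 Merkel cell and nerve genes Ncam1 rose by 1.99, and Krt8 and Mbp fell by 1.37 and 0.45. Such small counts stand beside 7.87% higher and 8.74% lower over all genes tested.

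Fewer members of the following lists passed with sex as a covariate or in the male cultures alone than in the main test. In the TGF-beta and BMP list 0 passed as higher and 3 as lower with the sex term, and in the Notch and complement lists 2 each as higher. In the male cultures alone none of these 3 lists had a call. Among matrix genes 6 passed as higher and 1 as lower with the sex term and 3 and 1 in the male cultures alone, and among metalloproteinases and inhibitors 5 and 0, then 2 and 0. Of the MHC class I genes 4 passed as higher with the sex term and 1 in the male cultures alone, and of the MHC class II and interferon-gamma response genes 1 and 0. Of the interferon-stimulated genes 2 passed as higher and 1 as lower with the sex term, then 0 and 1. Of the sensor and Toll-like receptor genes 2 passed as lower in either fit. In the stress response list 2 passed as lower with the sex term and 0 in the male cultures alone, and of the immediate early genes 1 and 0. None of the p53 targets passed with the sex term.

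Markers of other cell types were low and are given as measured. In cultures as in any bulk sample, fewer cells of a type and less RNA per cell cannot be told apart. Of 11 melanocyte markers 0 passed in edgeR, limma-voom or DESeq2 and 1 had an unadjusted p under 0.05, and their summed level was 62.6 to 66.4 CPM in transgenic and 47.8 to 122 CPM in wild-type cultures. Of 6 fibroblast markers tested 0 passed in edgeR, 1 did in DESeq2 and 1 had an unadjusted p under 0.05. The 11 fibroblast markers in the count table, tested or not, summed to 7.21 to 28.6 CPM in transgenic and 11.2 to 14.4 CPM in wild-type cultures. The 11 endothelial markers in the count table, 9 of them tested, summed to 27.7 to 39.4 CPM against 105 to 130 CPM, a difference that is mostly Flt1. Cdh5 and Kdr, which define that cell type, had 46 and 60 counts over all 6 libraries, too few to be tested. The 10 autosomal T cell markers in the count table, 5 of them tested, summed to 8.51 to 11.8 CPM against 26.2 to 32.9 CPM, again mostly 1 gene, Cd28. Trdc and Cd247, of the T cell receptor complex, had 9 counts each over all 6 libraries, too few to be tested. Cd3d, Cd3e, Cd3g, Trbc1, Cd4 and Cd8a have no entry in the keratinocyte count table and so could not be analysed. Markers of Langerhans cells and macrophages summed to 14.2 to 18.7 and 13.8 to 18.7 CPM. Among their 6 tested members Lyz2, the lysozyme gene of myeloid cells, rose to 2.47, 2.3 and 3.17 CPM from 0.151, 0.227 and 0.123 CPM, while Ptprc and Cd207 had 31 and 17 counts in all. The part of Lyz2-expressing cells in the rise of the MHC class II genes was not tested.

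The effect of the transgene in cultured keratinocytes was set against its effect in nonlesional skin, from 4 transgenic and 4 wild-type mice, by a test of the difference itself. Of 13692 genes tested, the effect was higher in keratinocytes for 86 (0.628%) and lower for 105 (0.767%). These counts moved with single libraries, and skin without wild-type mouse 2 gave 669 and 466. Of the 191 genes 158 were also called in keratinocytes. Tested within skin by edgeR with a sex term, 2 autosomal genes passed. Vgll3 itself was at 98.9, 779, 123 and 92.29 CPM in transgenic skin against 73.0, 92.34, 43.7 and 49.1 CPM. The groups overlapped narrowly, and its skin effect did not pass (log2 fold change 1.81, edgeR adjusted p = 0.243). Of the 1985 genes called in keratinocytes and tested in skin 58.4% had the same sign in both, against 52.6% of the 11913 genes tested in both. The same test on simulated data recovered 16.4% of 2-fold differences, so that most differences of that size would be missed.

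Efemp1 gave the smallest p of the difference and had opposite signs in the 2 tissues. In skin it was at 212, 243, 190 and 187 CPM in transgenic mice against 124, 114, 91.1 and 120 CPM, a log2 fold change of 0.89 that did not pass within skin (edgeR adjusted p = 0.125), while in keratinocytes that value was -2.66 (difference -3.58, SE 0.177, edgeR adjusted p = 2.503e-06). Nox4, which encodes an NADPH oxidase, was at 4.92, 4.06 and 3.26 CPM in transgenic keratinocytes against 0.108, 0.17 and 0.0983 CPM, and its effect exceeded that in skin by 4.22 (SE 0.342, edgeR adjusted p = 0.000347). Wnt3a had log2 fold changes of 2.41 in keratinocytes and -0.70 in skin (difference 3.08, edgeR adjusted p = 0.00368). Flot2, a gene for a membrane raft protein, and Il1r1, the interleukin 1 receptor gene, had differences of -1.88 and -1.63, and Epha4, an ephrin receptor gene, and Tnik, a kinase gene of the Wnt pathway, of 1.83 and 1.996. Tigit, an inhibitory receptor gene of T cells, was too low in keratinocytes to be tested there, at most 0.345 CPM, and was at 1.24, 1.85, 2.69 and 3.40 CPM in transgenic skin against at most 0.107 CPM.

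Some immune ligands that fell in keratinocytes had higher values in transgenic skin. Ccl20 was at 6.91, 1.59, 38.3 and 112 CPM in transgenic skin against 0.148, 2.27, 1.94 and 3.16 CPM, where the groups overlapped and the skin effect did not pass by itself (edgeR adjusted p = 0.236). The difference of the 2 effects was -6.05 (SE 1.20, edgeR adjusted p = 0.0356) and was lost in 13 of 16 alternative fits (highest adjusted p = 0.125). Tnfsf18 was at 3.86, 20.1, 7.34 and 20.8 CPM in transgenic skin against 1.39, 1.79, 0.212 and 0.857 CPM, without overlap, though the skin effect did not pass by itself (edgeR adjusted p = 0.185). Its difference was -6.21 (SE 1.03, edgeR adjusted p = 0.0195) and was lost in 4 of 16 alternative fits (highest adjusted p = 0.0762). Adgrg7 had nearly the same fold change in both tissues, 5.65 in keratinocytes and 5.43 in skin, with a difference of 0.08 (SE 1.48, edgeR adjusted p = 0.986), an interval too wide to call the effects alike. Its skin effect did not pass by itself (edgeR adjusted p = 0.158). Transgenic skin mouse 2 was at 0.398 CPM, against 6.62, 9.62 and 18.7 CPM in the other transgenic mice. Prl8a9 had counts of 0 in all 8 skin libraries, so no skin effect could be fitted for it.

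**Figure D5:**
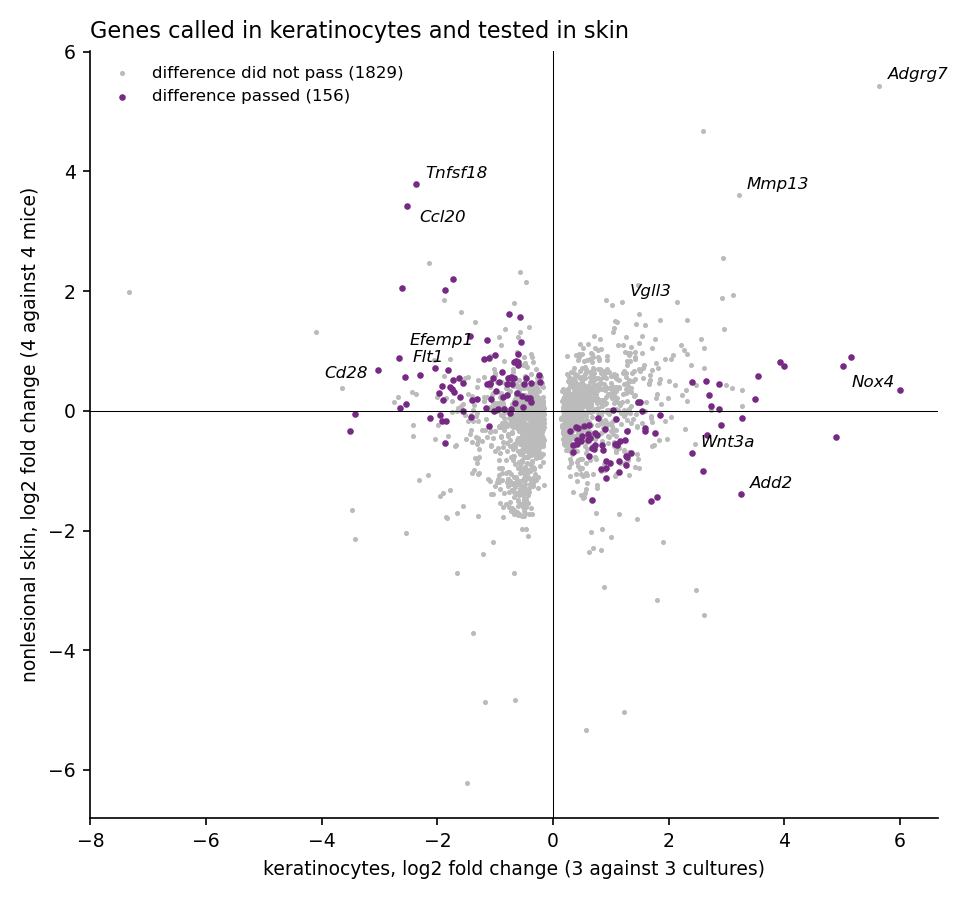
Log2 fold change (transgenic minus wild type) in cultured keratinocytes (x axis) against that in nonlesional skin (y axis) for the 1985 genes called in keratinocytes and tested in skin; each point is a gene, and colour marks the genes whose difference between tissues passed the test. Efemp1 lies at -2.66 on the x axis and 0.89 on the y axis, and 58.4% of the points have the same sign on both axes.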

How the data were processed

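Messenger RNA of 6 keratinocyte cultures was sequenced from stranded libraries, and the deposited unit is raw counts per gene symbol, which the authors made with STAR 2.5.2, HTSeq 0.6.1 and build mm10, per the submitters' processing notes; the sources used here do not give the annotation or the strand setting of the counting. RNA was taken up in a different reagent for keratinocytes than for skin, so the 2 tissues were compared only through their genotype effects. Symbols were placed on chromosomes with GENCODE M21 and RefSeq (GRCm38.p6): 71.3% matched, and the 6202 unmatched symbols held 1.16% to 1.22% of counts. Chromosomes X, Y and M were left out of the counts of calls.

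Counts were scaled by TMM, filtered with filterByExpr and tested with edgeR 4.0.16 (quasi-likelihood, R 4.3.3) without covariates, with Benjamini-Hochberg adjustment over all 14451 genes tested and a threshold of 0.05. SE is the absolute log2 fold change over the square root of F. The difference from skin was 1 fit over 14 libraries with a sex term for skin. The 14 alternatives for keratinocytes were DESeq2 1.42.0, limma-voom (limma 3.58.1), other scalings and filters, a sex term, male cultures alone and each culture left out. The 16 for the difference were limma-voom, no sex term and each of the 14 libraries left out. On simulated data of 14215 genes the keratinocyte test recovered 70.1%, 91% and 100% of 1.5-fold, 2-fold and 4-fold changes, with 11 of 185 calls false.

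Named genes were Vgll3, Krt5 and Krt14, 15 called genes from each end of the order of log2 fold changes (no overlap of the groups, higher mean at least 5 CPM), up to 4 called members per gene list with the smallest p, and, for the difference from skin, the 4 smallest p on either side. Further list members are named where a list is described; that choice followed a look at their values. A few genes and 1 gene list that these rules select are not reported here. The members, the 37 gene lists and the rules were chosen with earlier results of these data known. The labels give each culture an animal of its own; p-values cover the spread between these cultures.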

Additional observations from a re-analysis of the deposited data

Results flagged for a closer look

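The effect of the transgene differed between cultured keratinocytes and skin in the edgeR test of the difference for the 22 genes given here. They were named by keratinocyte fold change or by the p of the difference. Of these, 15 were among the 30 named by keratinocyte fold change, and the others were named by the p of the difference itself. Large differences in them thus follow in part from that choice. Over all 13692 genes tested 0.628% were called higher and 0.767% lower. Genes named from the lists passed this test as well and are not in the count of 22. Among them, Ifit2 (-2.05), Tlr2 (-1.46), Asap1 (-0.75) and Cxcl10 (-2.74) had a lower effect in keratinocytes. C3ar1 (5.59), Lyz2 (3.21) and Adamts1 (1.59) had a higher one. On the log2 scale the keratinocyte effect minus the skin effect was 4.22 for Nox4, 3.08 for Wnt3a, 1.83 for Epha4, 1.996 for Tnik, 3.26 for Rgs5 and 3.35 for Adamts15. It was 4.63 for Add2, 3.12 for Clec2g, 2.39 for Ackr3 and 3.03 for Chst2. Among genes with a lower effect in keratinocytes it was -3.58 for Efemp1, -6.80 for Tigit, -1.88 for Flot2, -1.63 for Il1r1, -3.20 for Slc1a1 and -3.75 for Cd28. It was -2.73 for Flnc, -2.68 for Rgs16, -6.05 for Ccl20, -6.21 for Tnfsf18, -2.93 for Flt1 and -5.28 for Csf2. In skin Csf2 was near the floor, at most 0.729 CPM in transgenic and 0.119 CPM in wild-type mice, and was not tested by itself. Its difference was lost in 3 of 16 alternative fits. The call held in all 16 alternative fits for 11 of the 22: Cd28, Efemp1, Epha4, Flot2, Flt1, Il1r1, Nox4, Slc1a1, Tigit, Tnik and Wnt3a.

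In 3 of these genes, each considered by itself, 1 wild-type skin library was set apart from the other 3 by a gap that was large relative to the group's range. The value of that library was 16.5 CPM for Add2, 6.93 CPM for Wnt3a and 0.0398 CPM for Tigit. For Tigit the other 3 were at 0.0990, 0.106 and 0.107 CPM, so that gap lies among values near the floor. Chance gives such a gap in about 1 in 20 groups of 4, so some arise by chance where many groups are looked at.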

How the results depend on the processing

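The main counts, 960 genes higher and 1066 lower, stayed within 1.5 times under DESeq2, other scalings, no filter, limma-voom and a fit on autosomal genes only. They were 243 and 279 with the sex term and 79 and 95 on the 4 male cultures. Leaving out 1 culture gave 365 to 1553 higher and 463 to 1819 lower, the highest values without transgenic culture 3. With 1 male wild-type culture, the last fit assumes that it varies like the transgenic ones. The cause of these shifts was not tested.

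The counts for the difference from skin, 86 higher and 105 lower, were 50 and 62 by limma-voom and 52 and 59 without the sex term. Leaving out 1 library gave 10 to 669 higher and 19 to 466 lower. They were highest without wild-type skin mouse 2 and lowest without transgenic keratinocyte culture 1. The difference of Adgrg7, which did not pass, changed sign to -0.026 without the sex term and ranged from -0.36 to 0.63 with single libraries left out, negative in 6 of these fits (-0.059, -0.070, -0.33, -0.045, -0.097 and -0.36). No paired analysis was possible because the labels of the keratinocyte cultures give no replicate numbers shared between the genotypes. Genes of low count limit precision: 64 called genes had both means under 1 CPM.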

Other observations

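Members of several gene families changed in keratinocytes. The 18 families looked at were chosen after values had been seen, and each is given as a count of members that passed the edgeR test, beside 7.87% higher and 8.74% lower over all genes tested. Among tight junction claudins 5 of 7 tested fell: Cldn3, Cldn7 (log2 fold change -1.20), Cldn4 (-0.62), Cldn12 (-0.26) and Cldn1, which was at 593, 608 and 543 CPM against 913, 986 and 972 CPM. Among keratins 7 of 26 fell and 1 rose. Krt7, a keratin of simple epithelia, was at 99.2, 87.6 and 58.8 CPM against 250.4, 264 and 203 CPM, and Krt8 and Krt19, of the same kind, fell by 1.37 and 2.43 from at most 2.8 CPM. Of the 6 TMPRSS11 membrane proteases 4 fell, with Tmprss11e at 8.99, 7.98 and 16 CPM against 29.9, 30.9 and 44.2 CPM.

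Members of other families rose. Of 3 hyaluronan synthases, which make the main glycosaminoglycan around keratinocytes, Has2 was at 265, 234 and 76.8 CPM against 34, 35.6 and 35.5 CPM and Has3 rose by 1.70. Padi4, of the enzymes that turn arginine into citrulline, was at 31.9, 29.4 and 26.7 CPM against 5.86, 4.63 and 5.23 CPM (log2 fold change 2.48, SE 0.112), and Padi3 rose by 1.23. In the prolactin family 4 of 6 rose, Prl2c2 and Prl2c3 among them, whose near-identical copies make their counts uncertain. Of 29 clustered protocadherins 12 rose, with the same limit. Of 14 RGS genes 5 rose and 1 fell. With the sex term 1 protocadherin and 2 prolactin genes passed, and in the male cultures alone 0 and 2; of the claudins 3 passed in either fit.

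Other families gave few calls. Of 20 integrins 1 rose, of 101 ribosomal protein genes 5 fell and of 16 clade B serpins 3 fell. Of 9 laminins and 15 small proline-rich proteins 0 passed in edgeR, limma-voom or DESeq2, and 3 and 2 had an unadjusted edgeR p under 0.05. Of 27 collagens 10 rose and 2 fell, of 14 Eph receptors and ephrins 6 and 3, and of 10 ADAMTS proteases 5 and 1. Of 4 Skint genes 3 rose, and of 9 genes of the HOXC cluster 4 did. With the sex term 1 Skint gene, 2 HOXC genes, 1 hyaluronan synthase and 2 Padi genes passed as higher. As lower, 2 TMPRSS11 proteases, 5 keratins, 2 clade B serpins and 1 ribosomal protein gene passed in that fit, and 0 keratins and 0 integrins passed as higher. Higher and lower counts there were 6 and 1 for collagens, and 3 and 1 each for RGS genes, ADAMTS proteases and Eph receptors with ephrins.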
